A study of Mus musculus with 199 samples.

Results

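The genes described here are 10 markers of epithelial and mesenchymal cell state, measured in mouse small-cell lung cancer cells. They were taken from the count table by symbol, and all 10 were found among its 31581 genes. The epithelial genes were Krt8 and Krt18, the 2 keratins of simple epithelia, and the adhesion proteins Epcam and Cdh1 (E-cadherin). The mesenchymal genes were the intermediate filament gene Vim, the matrix gene Fn1, the cadherin gene Cdh2 (N-cadherin) and the transcription factor genes Zeb1, Zeb2 and Snai2. Epithelial cells hold to one another through E-cadherin junctions and are stiffened by keratin filaments, whereas mesenchymal cells build vimentin filaments and deposit fibronectin. In epithelial-mesenchymal transition the ZEB and SNAI factors bind E-box sequences and repress epithelial genes, E-cadherin among them. Small-cell lung cancer is a neuroendocrine tumour that metastasises often to the liver, and its cells can carry markers of both states at once.

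RNA was sequenced from 199 libraries: 116 captures of 10 cells each, 79 pool-and-split controls and 4 bulk libraries. The captures were cut by laser from 8 µm cryosections and their poly(A) RNA was amplified by PCR. The pool-and-split controls were made by dividing pooled material into portions and serve as the measure of technical variation. The bulk libraries were made from total RNA by another protocol.

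The KP1 line has the genotype Rb1-/-Trp53-/-. It was captured as spheroids in culture (28 libraries of 10 cells and 20 pools), as liver colonies of immunocompromised nude mice (33 and 35 libraries) and as liver colonies of immunocompetent F1 mice (31 and 24 libraries). The RPC line, labelled as pre-small-cell lung cancer, has the genotype Rb1-/-Trp53-/-p130-/+Crebbp-/- and was captured as spheroids in 24 libraries of 10 cells. The bulk libraries came from spheroids of KP1, KP2 (Rb1-/-Trp53-/-Ptch1+/lacz), KP3 (Rb1-/-Trp53-/-Axin2+/lacz) and KP5 (Rb1-/-Trp53-/- BAT-GAL), with 1 library a line. Loss of Rb1 and Trp53 was therefore shared by every group, and each group of captures represents 1 line. The number of animals, cultures and pools behind the libraries is not stated, and p-values therefore speak for captures, not for animals.

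Counts on genes ran from 718207 to 7557772 in the 10-cell libraries, from 956772 to 5830588 in the pools and from 17266200 to 42447973 in bulk. Values are CPM, counts scaled to the library's total on genes, unless stated otherwise. The tumour type of the labels was checked against 12 neuroendocrine genes. All 12 had counts in each 10-cell group, with a median summed level of 3037 CPM in spheroids, 1919 CPM in nude livers, 2894 CPM in F1 livers and 2021 CPM in RPC. Hepatocyte markers were also present in the liver captures: albumin (Alb) had counts in 32 of 33 nude and 24 of 31 F1 libraries and in 0 of 28 spheroid libraries. Spike-in counts averaged 0.183% of the total in spheroid captures, 0.465% in RPC, 2.51% in nude livers and 3.01% in F1 livers. The highest single shares were 1.36%, 1.84%, 31.8% and 11.2%. The effect of this difference between the groups was not tested. Further, 9 of 28 spheroid libraries carried at least 0.1% of spike-in counts and 5 of 31 F1 libraries had a low level of the pseudogene Rpl19-ps11. Values within these unlabelled subsets are given for the members' main differences, and were not computed for the list genes or the keratin ratios.

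Among the 5 members that passed a filter on low counts, Krt8 differed most between spheroids and liver colonies. It encodes the type II keratin that pairs with the type I keratin of Krt18, so that the proteins form filaments only together. In the 28 spheroid libraries Krt8 ranged from 0 to 172 CPM with a median of 0.728 CPM. In the 33 nude liver libraries it ranged from 1.98 to 922 CPM with a median of 284 CPM, and in the 31 F1 liver libraries from 15.4 to 886 CPM with a median of 301 CPM. The groups overlapped, but 1 of 28 spheroid libraries exceeded 100 CPM, against 27 of 33 in nude and 27 of 31 in F1 livers. In bulk or 10-cell material, fewer cells of a type and less RNA per cell cannot be told apart.

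Krt8 rose by 4.35 on the log2 scale in nude livers (SE 0.73, a 20.3-fold difference, edgeR adjusted p = 1.88e-06) and by 4.81 in F1 livers (SE 0.71, 28.1-fold, edgeR adjusted p = 6.98e-07). Both liver comparisons use the same spheroid libraries. Of the 10 members, 5 passed the filter on low counts in the nude comparison and 3 of these were called, all higher, where 34.1% of 7834 genes were called in either direction and 17.7% higher. In the F1 comparison 5 passed and 3 were called, all higher, where 12.6% of 7309 genes were called and 7.73% called higher. With limma-voom more genes were called lower than higher in F1 livers, 1329 against 414, and Krt8 was called higher there under each of 11 alternatives. The spheroid library with the highest level, replicate 27, lowered both values: without it they were 5.21 and 5.72. Within the subsets of spheroid libraries with high and low spike-in shares the nude value was 4.31 and 4.33, the F1 value was 4.90 and 4.82, and within the F1 subsets with high and low Rpl19-ps11 it was 4.83 and 5.15.

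Krt18 moved differently from its partner. Spheroid libraries ranged from 5.31 to 364 CPM with a median of 153 CPM, and all 28 had counts. Nude liver libraries ranged from 25.1 to 1072 CPM with a median of 180.4 CPM. F1 liver libraries ranged from 0.274 to 229.5 CPM with a median of 33.5 CPM. The 3 groups overlapped, with the lowest values in F1 livers and the highest in nude livers.

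The difference between nude livers and spheroids did not pass the test for Krt18 (log2 fold change 0.54, 95% interval -0.05 to 1.14, edgeR adjusted p = 0.159). Neither did that between F1 livers and spheroids (-1.08, interval -1.88 to -0.28, edgeR adjusted p = 0.0678), although 4 of 11 alternatives called it lower. For nude livers DESeq2 called it higher (0.69, DESeq2 adjusted p = 0.0499). Against spheroid libraries with high and low spike-in shares Krt18 was 0.28 and 0.65 in nude livers (adjusted p = 0.720 and 0.165) and -1.24 and -0.96 in F1 livers (adjusted p = 0.348 and 0.209). For F1 libraries of high and low Rpl19-ps11 it was -1.09 and -0.76 against spheroids (adjusted p = 0.0783 and 0.502). Between the livers, Krt18 was 3.10-fold lower in F1 than in nude colonies (log2 fold change -1.63, SE 0.41, edgeR adjusted p = 0.00238). Here 6 members passed the filter and 2 were called, 1 in each direction, where 19.2% of 7064 genes were called. For the 26 F1 libraries of high Rpl19-ps11 the value was -1.66 (adjusted p = 0.00450), and for the 5 of low Rpl19-ps11 it was -1.32 (adjusted p = 0.249).

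The balance within the keratin pair differed between the 3 environments. As a log2 ratio of Krt8 to Krt18, each taken as CPM + 1, the median was -5.59 in spheroids, 0.12 in nude livers and 2.86 in F1 livers. The single-library values ran from -8.51 to 1.20 in spheroids, from -5.38 to 3.45 in nude livers and from -2.84 to 8.24 in F1 livers. Gene length cancels in this comparison, since the same 2 genes are divided in every library. The ratios are given as a description and were not tested. The pools had the same order, with medians of -5.37, 0.40 and 1.30. Krt8 and Krt18 did not follow each other from library to library within a group: Spearman's rho was -0.179 in spheroids, 0.191 in nude livers and -0.001 in F1 livers (permutation p = 0.361, 0.288 and 0.998).

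**Figure D1:**
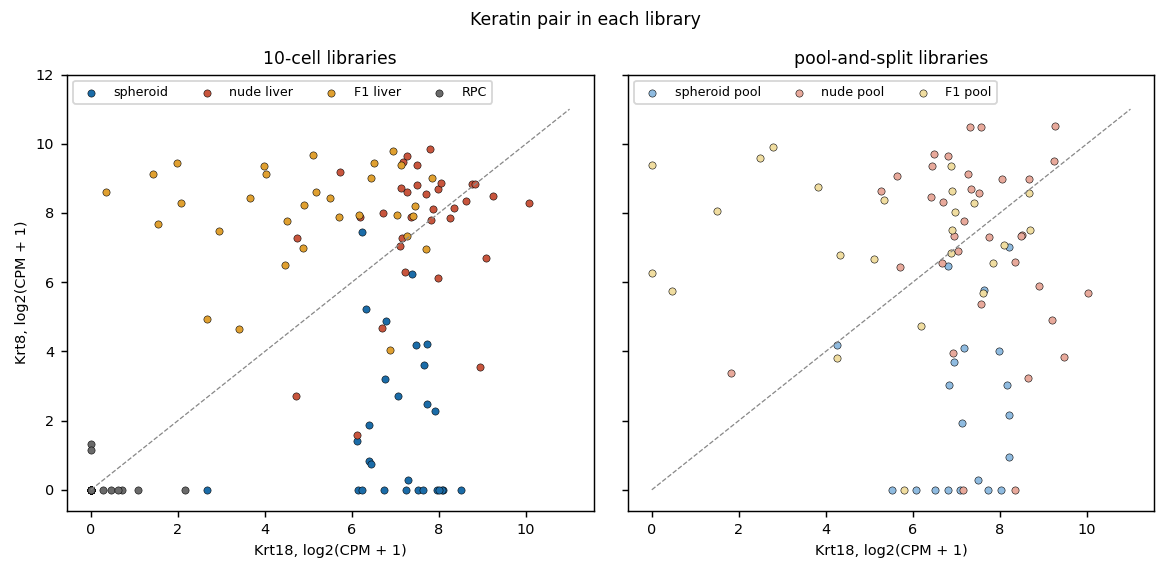
Krt8 (vertical axis) against Krt18 (horizontal axis) in log2(CPM + 1), 1 point a library, for 10-cell captures on the left and pool-and-split libraries on the right. The dashed line marks equal CPM. Spheroid points (blue) extend along the bottom right, F1 liver points (yellow) spread along the top and RPC points (grey) lie at or near the origin, with a median of 0 CPM for both genes.

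The discordant keratin genes are neighbours in the genome, which is why their start regions are printed. Krt8 lies at chr15:101996711-102004342 on the minus strand and Krt18 at chr15:102028216-102032026 on the plus strand (GRCm38), with 23873 bases between the end of Krt8 and the start of Krt18. The 250 bases before each start site, from RefSeq on GRCm38.p6, are given 5′ to 3′ with E-box motifs (CANNTG, both strands) in capitals.
Krt8 (chr15:102004343-102004592, minus strand): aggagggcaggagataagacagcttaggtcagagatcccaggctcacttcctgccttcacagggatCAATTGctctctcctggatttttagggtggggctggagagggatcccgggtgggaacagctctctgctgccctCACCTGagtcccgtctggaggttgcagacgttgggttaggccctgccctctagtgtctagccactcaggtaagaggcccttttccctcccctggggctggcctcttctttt
Krt18 (chr15:102027966-102028215, plus strand): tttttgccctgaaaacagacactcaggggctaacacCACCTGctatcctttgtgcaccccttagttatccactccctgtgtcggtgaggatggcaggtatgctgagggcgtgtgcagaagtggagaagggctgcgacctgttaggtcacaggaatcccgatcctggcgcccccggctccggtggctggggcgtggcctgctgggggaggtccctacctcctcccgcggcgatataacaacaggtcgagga
Krt8 held CAATTG and CACCTG, the latter 111 bases before its start, and Krt18 held 1 CACCTG, 214 bases before its start. CACCTG is the other strand of CAGGTG, which is one form of CANNTG. Of 32851 promoters of this length, 66.2% held CANNTG and 17.2% held CAGGTG on either strand, so these matches are common. Of the 10 members, 5 were found in the promoter table, and 4 of these are printed.

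Hepatocytes express both keratins, so the hepatocyte list was read beside them. Its 14 genes summed to a median of 87.7 CPM in spheroids, where 9 of them, Alb included, were at 0, and to 1006 CPM in nude and 326 CPM in F1 livers. With the hepatocyte score as a covariate, the Krt8 difference was 5.03 in nude livers (edgeR adjusted p = 0.000832) and 4.80 in F1 livers (edgeR adjusted p = 6.45e-06). The Krt18 difference between the livers was -1.40 with the covariate (edgeR adjusted p = 0.0275). That of nude livers from spheroids was -0.21 with the covariate and 0.54 without it. Within groups Krt8 followed the score with rho = -0.098 in nude and 0.060 in F1 livers (permutation p = 0.586 and 0.745), and Krt18 with rho = 0.263 and 0.149 (permutation p = 0.141 and 0.423). The nude library with the highest Krt18, replicate 35, had the second highest hepatocyte sum of the 33, 4392 CPM. Of 6 bile duct markers, 4 had counts in each KP1 capture group and Krt19 and Cftr were at 0. Their sum had a median of 49.6 CPM in spheroids (0 to 512 CPM), 29.1 CPM in nude livers (0.608 to 406 CPM) and 23.6 CPM in F1 livers (0 to 609.9 CPM). The hepatocyte markers themselves differed between spheroids and livers, so the covariate cannot separate liver RNA from the group. The part of RNA from liver epithelia in the keratin differences was not tested.

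Epcam, a surface adhesion protein of epithelia, was higher in F1 than in nude liver captures. It ranged from 0 to 31.6 CPM in spheroids with a median of 0.219 CPM and from 0 to 21.4 CPM in nude livers with a median of 1.43 CPM. In F1 livers it ranged from 0 to 217 CPM with a median of 2.01 CPM. The medians lay close together and the groups overlapped: the difference was in the upper tail, since 12 of 31 F1 libraries exceeded 10 CPM, against 1 of 33 in nude livers and 3 of 28 in spheroids.

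Between the livers, Epcam rose by 3.56 on the log2 scale in F1 (SE 0.73, 11.8-fold, edgeR adjusted p = 0.000184). Among F1 libraries with high Rpl19-ps11 (26) it was 3.25, and among those with low Rpl19-ps11 (5) it was 4.60 (adjusted p = 0.000705 and 0.00415). With the hepatocyte score as a covariate it was 3.89 (adjusted p = 0.000102). Epcam did not pass the low-count filter against spheroids. Without that filter, where 26.7% of 19000 genes were called in the F1 comparison and 42.0% of 20050 in the nude one, it was 3.55 in F1 livers (edgeR adjusted p = 0.00134) and -0.05 in nude livers (edgeR adjusted p = 0.967). In the pools, where Epcam passed the filter, the difference of F1 from spheroid pools was -0.04 (edgeR adjusted p = 0.983). Its sign changed in 3 of 5 alternatives, with values up to 1.37.

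Epcam lies at chr17:87635979-87651106 (GRCm38). Its 250 bases before the start are shown because the gene passed the test between the livers and its start region carries a pair of E-boxes, again in capitals.
Epcam (chr17:87635729-87635978, plus strand): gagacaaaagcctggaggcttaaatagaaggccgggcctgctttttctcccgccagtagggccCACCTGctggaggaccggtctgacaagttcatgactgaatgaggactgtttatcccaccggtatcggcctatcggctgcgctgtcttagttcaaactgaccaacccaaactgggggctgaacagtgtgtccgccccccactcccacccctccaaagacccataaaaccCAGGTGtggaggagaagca
The E-box forms CACCTG and CAGGTG stood 187 and 19 bases before the start. A GC box (GGGCGG, here on the minus strand) stood 58 bases before it, a motif held by 32.7% of promoters.

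Cdh1, the gene of E-cadherin, was at or near 0 in the captures. It had no counts in the 28 spheroid, 24 RPC, 20 spheroid pool or 35 nude pool libraries. A count of 0 over all spheroid captures allows up to 0.0241 CPM, for counting error only. Among the liver captures it had 129 counts, 34.5 CPM, in nude replicate 7 and 1 count in 1 of 31 F1 libraries. Without the filter on low counts that 1 nude library alone made Cdh1 a called gene (log2 fold change 4.70, edgeR adjusted p = 4.32e-05).

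Cdh2, the gene of N-cadherin, was low but widespread. It had counts in 24 of 28 spheroid libraries (lowest 0, median 1.04, highest 157 CPM), in 29 of 33 nude liver libraries (0, 1.49 and 16.9 CPM) and in 16 of 31 F1 liver libraries (0, 0.198 and 31.9 CPM). All 24 RPC libraries had counts, from 0.265 to 28.8 CPM with a median of 3.19 CPM. The groups overlapped, and 1 spheroid library held 68.0% of the summed spheroid level. When every library was thinned to 718149 counts, 15 of 28 spheroid, 24 of 33 nude and 8 of 31 F1 libraries still had a count. Of the comparisons of mean levels, Cdh2 passed the filter only in that of RPC with KP1 spheroids, where it was not called (log2 fold change -1.21, 95% interval -2.63 to 0.22, edgeR adjusted p = 0.245). Against the spheroid libraries with high and low spike-in shares it was -2.47 and 0.47 (edgeR adjusted p = 0.0462 and 0.650). Without the filter Cdh2 was called lower in nude livers than in spheroids (-1.73, edgeR adjusted p = 0.0413) but not in F1 livers (-1.81, edgeR adjusted p = 0.122).

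**Figure D2:**
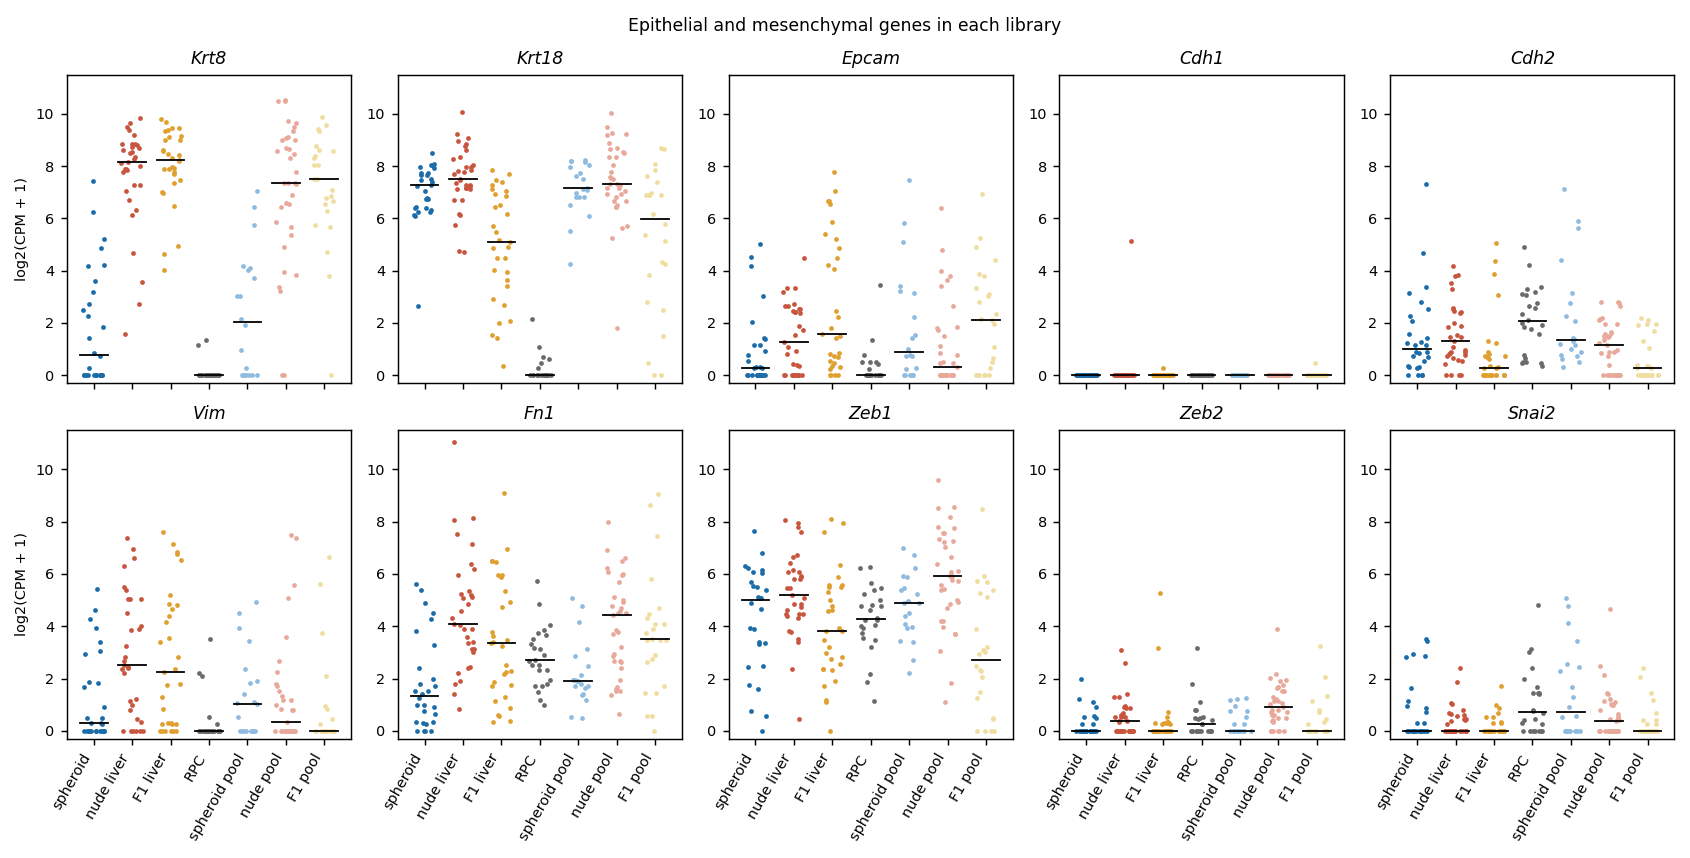
Level of each of the 10 members in every 10-cell and pool-and-split library, as log2(CPM + 1), with 1 point a library and the group median as a black bar. Krt8 sits near the bottom in spheroids (median 0.728 CPM) and near the top in both livers (284 and 301 CPM), both keratins are near 0 in RPC, and Cdh1 has 1 high point, in a nude liver library.

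The mesenchymal filament gene Vim was patchy in every group. Of the 28 spheroid libraries, 16 had counts (lowest 0, median 0.226, highest 41.4 CPM). In nude livers 27 of 33 had counts (0, 4.72 and 164 CPM), and in F1 livers 25 of 31 (0, 3.71 and 196 CPM). The ranges overlapped from 0 upward, and 4 spheroid libraries exceeded 10 CPM against 13 in nude and 12 in F1 livers. Vim rose by 2.03 on the log2 scale in nude livers (SE 0.79, 4.08-fold, edgeR adjusted p = 0.0385) and by 2.52 in F1 livers (SE 0.87, 5.72-fold, edgeR adjusted p = 0.0438). Between the livers it did not pass the test (0.44, 95% interval -0.97 to 1.85, edgeR adjusted p = 0.718).

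Both Vim calls lay close to the threshold and ended when 1 library was left out, whereas the nude value was 4.32 with the replicate block (edgeR adjusted p = 0.00183). The nude call also ended with all 4 groups in 1 fit (1.89, edgeR adjusted p = 0.0663), and the F1 call with the replicate block (2.18, edgeR adjusted p = 0.226). Without nude replicate 24 the value was 1.77 (adjusted p = 0.0698), and without F1 replicate 6 it was 2.21 (adjusted p = 0.0770). Against the spheroid libraries with high spike-in shares alone, Vim was 0.99 in nude and 1.56 in F1 livers (adjusted p = 0.588 and 0.626), and against those with low shares 2.82 and 3.25 (adjusted p = 0.0175 and 0.0397). Within the F1 subsets with high and low Rpl19-ps11 it was 2.52 and 2.54 (adjusted p = 0.0508 and 0.266).

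Vim lies at chr2:13573927-13582826 (GRCm38). The 250 bases before its RefSeq start site are shown because Vim passed the test in both livers. They lie inside the gene coordinates just given, which begin upstream of the RefSeq start. They held no CANNTG, which 66.2% of promoters hold, so nothing is in capitals, and TATAAA stood 32 bases before the start, a motif present in 12.4% of promoters.
Vim (chr2:13574061-13574310, plus strand): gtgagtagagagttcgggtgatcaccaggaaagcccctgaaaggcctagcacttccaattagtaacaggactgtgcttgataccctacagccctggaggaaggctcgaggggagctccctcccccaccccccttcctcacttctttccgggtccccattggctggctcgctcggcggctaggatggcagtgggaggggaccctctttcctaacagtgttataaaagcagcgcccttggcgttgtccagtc

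Fn1, the gene of the matrix protein fibronectin, had counts in every liver capture. Spheroid libraries ranged from 0 to 48.1 CPM with a median of 1.51 CPM. Nude liver libraries ranged from 0.788 to 2112 CPM with a median of 15.8 CPM, and F1 liver libraries from 0.255 to 542 CPM with a median of 9.30 CPM. The groups overlapped, with 6 of 28, 21 of 33 and 13 of 31 libraries above 10 CPM.

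Fn1 rose by 3.90 on the log2 scale in nude livers (SE 0.73, 14.9-fold, edgeR adjusted p = 1.51e-05) and by 2.95 in F1 livers (SE 0.74, 7.73-fold, edgeR adjusted p = 0.00399). Single libraries set part of these sizes: without nude replicate 3, which held 59.0% of the nude sum, the value was 2.84 (adjusted p = 0.000407), and without F1 replicate 19 it was 2.07 (adjusted p = 0.0333). Against spheroid libraries with high and low spike-in shares it was 4.59 and 3.63 in nude livers (adjusted p = 0.00642 and 0.000697) and 3.87 and 2.69 in F1 livers (adjusted p = 0.111 and 0.0341). Within the F1 subsets with high and low Rpl19-ps11 it was 3.10 and 2.62 (adjusted p = 0.00310 and 0.154). Between the livers Fn1 did not pass the test (-0.92, 95% interval -2.18 to 0.34, edgeR adjusted p = 0.334). Of its values, 95.5% were not whole numbers, so its counts are estimates to an extent that was not tested.

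Liver stroma expresses Vim and Fn1, and hepatocytes secrete fibronectin, so markers of those cells were read beside them. With the hepatocyte score as a covariate the F1 differences were 0.20 for Vim (edgeR adjusted p = 0.917) and 1.25 for Fn1 (edgeR adjusted p = 0.314), and neither was called. In nude livers they were 2.14 for Vim (edgeR adjusted p = 0.203), no longer called, and 4.76 for Fn1 (edgeR adjusted p = 0.000846). Here too the covariate cannot separate hepatocyte RNA from the group, since the hepatocyte markers differed between spheroids and livers. Within F1 livers the hepatocyte score gave r = 0.471 with Vim and 0.329 with Fn1 (permutation, adjusted p = 0.119 and 0.364). Within nude livers r was 0.076 and 0.050 (permutation, adjusted p = 0.776 and 0.841). The 10 stellate and fibroblast markers summed to a median of 68.5 CPM in spheroids (0.471 to 238 CPM), 230.2 CPM in nude livers (66.1 to 1234 CPM) and 135 CPM in F1 livers (0.446 to 854 CPM). Of these 10, 6 had counts in spheroids, and Dcn, Pdgfrb, Col3a1 and Lum were at 0 there, while all 10 had counts in each liver group. Des had counts in all 28 spheroid captures with a median of 55.3 CPM, against 171 CPM in nude livers and 72.9 CPM in F1 livers. Dcn was 14.0 CPM in the bulk KP1 spheroid library and averaged 2.99 CPM in nude and 2.84 CPM in F1 liver captures. The 8 endothelial markers summed to a median of 0.437 CPM in spheroids (0 to 49.2 CPM), 24.6 CPM in nude livers (3.54 to 131 CPM) and 2.53 CPM in F1 livers (0 to 109.6 CPM), and nude replicate 24, without which the Vim call ended, had the highest sum of its group. The 10 macrophage and Kupffer cell markers summed to a median of 13.6 CPM in spheroids (0 to 138 CPM), 21.5 CPM in nude livers (0 to 251 CPM) and 39.3 CPM in F1 livers (0 to 355 CPM). Of these 10, 2 had counts in spheroids, 9 in nude livers and 8 in F1 livers. Clec4f, C1qa and Cd5l were at 0 in spheroids, whereas C1qa and Cd5l had counts in both liver groups and Clec4f in nude livers. F1 replicate 6, without which the F1 Vim call ended, ranked 2 of 31 for these markers (224 CPM) and 3 of 31 for the hepatocyte markers (1667 CPM). The 5 erythrocyte markers had medians of 0 CPM in spheroids, 551 CPM in nude livers and 1622 CPM in F1 livers.

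Across the 31 F1 libraries the stellate and fibroblast score followed Fn1 (Spearman's rho = 0.670, adjusted p = 0.00270; Pearson's r = 0.658, adjusted p = 0.00405) and Vim (rho = 0.610, adjusted p = 0.00990; r = 0.631, adjusted p = 0.00517), by permutation tests adjusted over 45 relations. Without the 2 libraries farthest from the median, r was 0.608 for Fn1 and 0.602 for Vim. Within the 26 F1 libraries with high Rpl19-ps11, rho was 0.662 for Fn1 and 0.548 for Vim, and the other 5 were too few for a value. Across the 33 nude libraries Fn1 gave r = 0.528 (permutation, adjusted p = 0.0222) and rho = 0.458 (permutation, adjusted p = 0.117), and Vim gave r = 0.438 and rho = 0.436 (permutation, adjusted p = 0.123 and 0.126). Krt8 gave rho = 0.014 in nude and 0.323 in F1 livers with this score (permutation, adjusted p = 0.990 and 0.607). The relation with the stellate and fibroblast list was computed after seeing the data. The part of hepatocyte, stromal, endothelial, macrophage or blood RNA in the Vim and Fn1 differences was not tested.

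Zeb1, a repressor of epithelial genes, was present in nearly every library. Spheroid libraries ranged from 0 to 197 CPM (median 30.9 CPM), nude liver libraries from 0.358 to 269 CPM (median 35.7 CPM) and F1 liver libraries from 0 to 273 CPM (median 13.3 CPM). The groups overlapped throughout, and Zeb1 passed no test between 10-cell groups: the log2 difference from spheroids was 0.59 in nude livers (SE 0.46, edgeR adjusted p = 0.336) and 0.64 in F1 livers (SE 0.57, edgeR adjusted p = 0.508). Against the spheroid libraries with high and low spike-in shares, whose Zeb1 medians were 9.48 and 33.0 CPM, the nude value was 1.52 and 0.30 (adjusted p = 0.132 and 0.699) and the F1 value 1.67 and 0.38 (adjusted p = 0.430 and 0.773). In the subset of F1 libraries with high Rpl19-ps11 the median was 10.6 CPM and in the 5 others 44.4 CPM. Of the Zeb1 values, 27.6% were not whole numbers.

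The other factors were near the limit of detection. Zeb2, a close relative of Zeb1, had counts in 9 of 28 spheroid, 18 of 33 nude, 13 of 31 F1 and 13 of 24 RPC libraries, and its highest value, 37.7 CPM, came from 1 F1 library that held 77.3% of that group's sum. Snai2, which encodes the factor Slug, had counts in 12 of 28 spheroid libraries (highest 10.4 CPM), 14 of 33 nude (4.30 CPM), 9 of 31 F1 (2.30 CPM) and 17 of 24 RPC libraries (26.9 CPM). Neither passed the low-count filter in any comparison. Without the filter, in F1 livers against spheroids Zeb2 was called higher (2.99, edgeR adjusted p = 0.0154) and Snai2 lower (-2.62, edgeR adjusted p = 0.0147). Their fractional values (21.6% for Zeb2 and 36.2% for Snai2) add to this uncertainty.

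**Figure D3:**
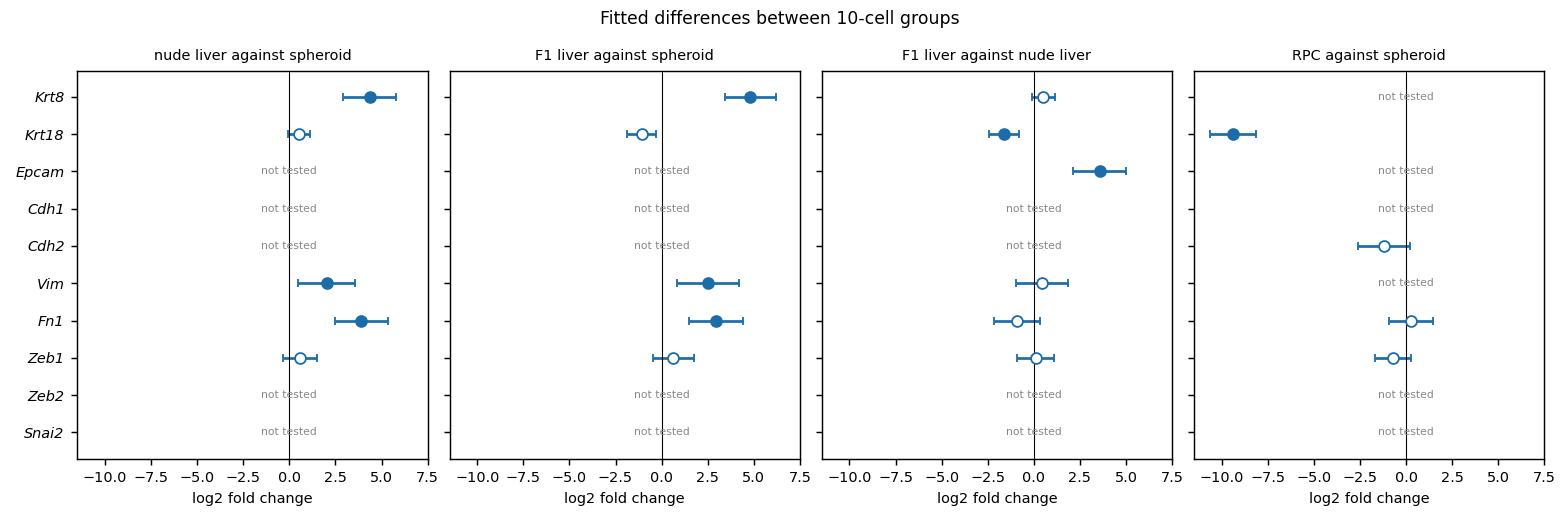
Fitted log2 fold changes of the members in 4 comparisons of 10-cell groups, from edgeR. Points are estimates, bars are 95% intervals, filled points had an adjusted p under 0.05 and grey words mark members that did not pass the low-count filter. Krt8, Vim and Fn1 are filled on the right in both liver comparisons, Krt18 is filled on the left in the comparisons of F1 with nude livers (-1.63) and of RPC with spheroids (-9.40), and Epcam is filled on the right between the livers (3.56).

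Other genes of the same states were counted from 2 lists, of which few members passed the filter. Of 32 epithelial genes, 10 were tested in nude livers: 2 rose and 3 fell, where 34.1% of all genes were called. The median log2 difference was -0.35, against -0.04 for all genes. Spint2, a serine protease inhibitor of epithelia, rose by 2.91 (edgeR adjusted p = 0.00834). The desmosome gene Dsp decreased by 1.86 (edgeR adjusted p = 0.0121) and the junction gene Ctnnb1, which encodes beta-catenin, by 1.10 (edgeR adjusted p = 0.0186). In F1 livers 1 of 10 tested epithelial genes rose, Spint2 (2.90, edgeR adjusted p = 0.0217), and 0 fell, where 12.6% of all genes were called, with a median of 0.06 against 0.22. Between the livers 1 of 9 rose, Dsp (2.15, edgeR adjusted p = 0.0166), where 19.2% of all genes were called.

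Of 35 mesenchymal genes, 4 were tested in nude livers and 2 rose: Lgals1, which encodes galectin-1 (1.78, edgeR adjusted p = 0.000448), and the E-box factor gene Tcf4 (1.35, edgeR adjusted p = 0.000234). Lgals1 averaged 60.1 ± 52.2 CPM in spheroids (SD, n = 28) and 242 ± 192 CPM in nude livers (n = 33). In F1 livers Lgals1 was the 1 called of 4 (2.69, edgeR adjusted p = 5.59e-07) and averaged 341 ± 202 CPM (n = 31). Between the livers 2 of 7 rose in F1, the matrix gene Sparc (2.46, edgeR adjusted p = 0.0192) and Lgals1 (0.92, edgeR adjusted p = 0.0292), and 1 fell, the lysyl oxidase family gene Loxl2 (-3.02, edgeR adjusted p = 0.000720). The shares of all genes called were 34.1% in nude livers, 12.6% in F1 livers and 19.2% between them. The list medians were 1.23 in nude livers, 0.21 in F1 livers and 0.92 between them, against -0.04, 0.22 and 0.26 for all genes.

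In the RPC line Krt18 was all but missing. Krt18 had counts in 6 of 24 RPC libraries, 31 counts in all, from 0 to 3.49 CPM with a median of 0 CPM, whereas all 28 KP1 spheroid libraries had counts (5.31 to 364 CPM). The groups did not overlap. Krt18 fell by 9.40 on the log2 scale (SE 0.65, edgeR adjusted p = 1.53e-19), the 1 call among 4 members tested, where 21.9% of 8600 genes were called. Without RPC replicate 4, the highest RPC library, it was -10.26. Against the spheroid libraries with high and low spike-in shares it was -9.65 and -9.27.

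Krt8 had 14 counts in 2 of 24 RPC libraries and was removed by the filter, as were Vim (counts in 5 of 24, highest 10.5 CPM) and Epcam (8 of 24, highest 9.82 CPM). Without the filter, where 31.5% of 19396 genes were called, all 3 were lower in RPC: Krt8 by a log2 difference of -7.05 (edgeR adjusted p = 1.57e-06), Vim by -3.11 (edgeR adjusted p = 0.0141) and Epcam by -2.72 (edgeR adjusted p = 0.0207). Fn1 (0.26, 95% interval -0.93 to 1.46, edgeR adjusted p = 0.801) and Zeb1 (-0.72, -1.67 to 0.24, edgeR adjusted p = 0.313) did not pass the test, although limma-voom called Fn1 higher (1.53, adjusted p = 0.0307). The RPC libraries were made from another line, so line and the further alleles cannot be told apart.

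Among the list genes tested in RPC, 4 of 9 epithelial genes fell and 1 rose, where 21.9% of all genes were called. Dsp fell by 8.43 (edgeR adjusted p = 1.68e-12), from 29.2 ± 45.7 CPM in KP1 spheroids (SD, n = 28) to 0.0820 ± 0.402 CPM (n = 24). The claudin gene Cldn3 fell by 4.64 (edgeR adjusted p = 2.09e-05). The keratin gene Krt7 fell by 2.45 (edgeR adjusted p = 0.00133), while Spint2 rose by 3.26 (edgeR adjusted p = 0.00213). Of 7 mesenchymal genes, Lgals1 fell (-4.24, edgeR adjusted p = 2.56e-06) and the gelatinase gene Mmp2 rose (2.20, edgeR adjusted p = 0.0403). The list medians were -0.78 for epithelial and -0.33 for mesenchymal genes, against 0.01 for all genes.

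The pool-and-split libraries gave a separate set of measurements of the same conditions, whose p-values speak for the pools only. Krt8 ranged from 0 to 129.6 CPM in spheroid pools (median 3.14 CPM), from 0 to 1468 CPM in nude pools (median 164 CPM) and from 0 to 949.9 CPM in F1 pools (median 181 CPM). The ranges overlapped, yet the difference passed the test in nude pools (4.73, SE 0.87, edgeR adjusted p = 1.63e-05) and in F1 pools (4.67, SE 0.89, edgeR adjusted p = 0.000148). Without spheroid pool replicate 19 these were 5.36 and 5.32.

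Fn1 was also higher in nude pools (2.71, SE 0.63, edgeR adjusted p = 0.000594) and in F1 pools (3.72, SE 0.84, edgeR adjusted p = 0.00144). With these, 3 of 4 tested members were called in nude pools, where 25.6% of 8010 genes were, and 2 of 5 in F1 pools, where 11.6% of 7249 genes were. The third call in nude pools was Zeb1, which ranged from 3.60 to 127 CPM in spheroid pools (median 28.4 CPM) and from 1.17 to 772 CPM in nude pools (median 59.4 CPM) and rose by 2.04 (SE 0.52, edgeR adjusted p = 0.00195). Zeb1 in the 10-cell captures of nude livers had a difference of 0.59 that did not pass the test. Vim did not pass the filter in pools, with counts in 12 of 20 spheroid, 18 of 35 nude and 8 of 24 F1 pools.

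Between the F1 and nude pools edgeR called 0 of 5 members, where 12.0% of 6010 genes were called and 1687 genes had an unadjusted p under 0.05. Krt18 was -0.99 (95% interval -1.99 to 0.01, edgeR adjusted p = 0.194), which limma-voom called lower (adjusted p = 0.0160), and Epcam was 1.53 (0.00 to 3.05, edgeR adjusted p = 0.186). Epcam in the spheroid pools averaged 15.2 ± 40.7 CPM (SD, n = 20), of which 1 pool held 58.7% of the sum. Zeb1 was -1.85 (-3.17 to -0.53, edgeR adjusted p = 0.0590), and 4 of 5 alternatives called it lower in F1 pools. Of the epithelial list, 0 of 9 tested genes rose and 1 fell in nude pools (median -1.04, against 0.16 for all genes), and 0 of 8 were called in F1 pools, where 25.6% and 11.6% of all genes were called. Of the other list, 4 of 6 tested mesenchymal genes rose in nude pools against spheroid pools, among them Sparc (8.63, edgeR adjusted p = 3.77e-07) and Lgals1 (2.21, edgeR adjusted p = 1.98e-05), and 2 of 3 rose in F1 pools, Tcf4 (1.63, edgeR adjusted p = 0.0277) and Lgals1 (1.85, edgeR adjusted p = 0.0349).

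Because the pools serve as the technical control, the spread of each member in captures was set against that in pools. The pools were not matched to the captures in mean spike-in share. It was 0.419% against 0.183% in spheroids, 7.29% against 2.51% in nude livers and 12.4% against 3.01% in F1 livers. The part of this difference in the spread was not tested. Spread was the mean absolute deviation from the group median in log2(CPM + 1). It was called by limma for 0 of 6 members tested in spheroids, where 0% of 8602 genes were called and 508 had an unadjusted p under 0.05. It was called for 0 of 5 in nude livers, where 0.777% of 9397 genes were called and 1366 had an unadjusted p under 0.05, and for 0 of 6 in F1 livers, where 1.48% of 8759 genes were called and 1561 had an unadjusted p under 0.05. Vim in F1 livers came closest, with 2.23 in captures and 0.88 in pools (difference 1.35, 95% interval 0.50 to 2.21, limma adjusted p = 0.0885). Krt8 in nude livers deviated by 1.29 in captures and 2.08 in pools (difference -0.79, limma adjusted p = 0.350).

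The bulk libraries showed how far the lines differ in the same genes, with 1 library a line and therefore no test. Intervals are exact Poisson intervals at 95% and cover counting error only. KP5 had the highest levels of 3 of the 4 epithelial members. Cdh1 was 717 CPM in KP5 (707 to 726 CPM), 3.77 CPM in KP2, 0.132 CPM in KP3 and 0 in KP1, where a floor of 3 counts is 0.174 CPM. With that floor taken as the KP1 level, KP5 was 4125-fold higher. This is not a lower bound, since the exact Poisson interval of KP1 reaches 0.214 CPM. Epcam was 468 CPM in KP5, 70.6 CPM in KP3, 12.6 CPM in KP1 and 9.23 CPM in KP2.

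Krt8 followed the same order as Epcam, at 214 CPM in KP5, 83.8 CPM in KP3, 7.76 CPM in KP1 and 3.25 CPM in KP2. Krt18 did not: it was 120.5 CPM in KP1 (115 to 126 CPM) and 119 CPM in KP3 (116 to 123 CPM), with overlapping intervals, 38.9 CPM in KP5 and 13.2 CPM in KP2. The log2 keratin ratio was -3.79 in KP1, -1.74 in KP2, -0.50 in KP3 and 2.43 in KP5. The bulk KP1 ratio lay within the range of the KP1 spheroid captures.

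The repressor Zeb1 was low where Cdh1 was high, at 1.58 CPM in KP5 (1.17 to 2.10 CPM), 42.3 CPM in KP3, 134 CPM in KP2 and 166 CPM in KP1. Zeb2 was 1.12 CPM in KP5 and between 15.9 and 33.2 CPM in the other lines. Snai2 differed by 2.32-fold between the highest and lowest line, from 4.71 CPM in KP2 to 10.9 CPM in KP1 and KP3. These are values of 4 libraries and give no relation that can be tested.

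The mesenchymal structural genes did not follow the factors line by line. Vim was 15.4 CPM in KP3, 2.84 CPM in KP1 and 1.20 CPM in KP2, and KP5 had 1 count (0.0329 CPM, 0.000834 to 0.184 CPM). Cdh2 was 269 CPM in KP2, 200.3 CPM in KP5, 175 CPM in KP1 and 5.76 CPM in KP3, so KP5 had both cadherins. Fn1 was 38.0 CPM in KP1, 22.8 CPM in KP3, 11.7 CPM in KP5 and 11.2 CPM in KP2, and the intervals of KP5 (10.5 to 12.9 CPM) and KP2 (10.3 to 12.3 CPM) overlapped. Per kilobase of exon, the levels of the members in bulk KP1 were 83.8 for Krt18, 21.7 for Cdh2, 16.2 for Zeb1, 5.73 for Epcam, 5.41 for Snai2, 3.96 for Krt8, 3.25 for Fn1, 0.796 for Zeb2, 0.598 for Vim and 0 for Cdh1, and in bulk KP5 they were 213 for Epcam, 157 for Cdh1, 109 for Krt8, 27.1 for Krt18, 24.8 for Cdh2, 2.95 for Snai2, 0.997 for Fn1, 0.155 for Zeb1, 0.0562 for Zeb2 and 0.00695 for Vim.

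Of 27 epithelial genes with at least 10 CPM in a line, 23 (85.2%) were highest in KP5, against 29.6% of 10968 genes. They included the splicing regulator gene Esrp1 (308 CPM in KP5, 69.3 CPM in KP3, 1.86 CPM in KP2 and 0 in KP1), the epithelial factor gene Grhl2 (125 CPM in KP5 and at most 4.31 CPM elsewhere) and the claudin gene Cldn7 (113 CPM and at most 10.7 CPM). Of 10 mesenchymal genes at that level, 7 (70.0%) were highest in KP1, against 27.0% of all genes. Among these, the cadherin gene Cdh11 was 185 CPM in KP1 and 0.0596 CPM in KP5, and Twist1 was 45.1 CPM in KP1, 30.6 CPM in KP2, 36.0 CPM in KP3 and 3.36 CPM in KP5. Cdh11 and Tgfb1 alone of the 7 exceeded the next line by more than 2-fold (4.18 and 2.27). Snai3 (19.9 CPM, and at most 0.951 CPM elsewhere) and Itgb1 (466 CPM, and at most 384 CPM elsewhere) were highest in KP5. These genes were named after their values were seen.

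**Figure D4:**
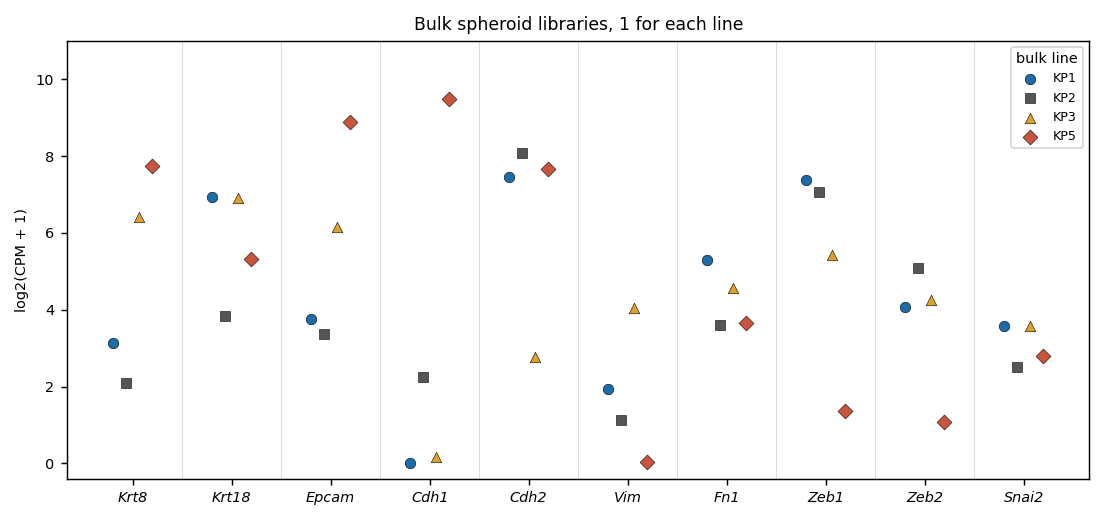
Level of each member in the 4 bulk spheroid libraries as log2(CPM + 1), with 1 library a line and no error bars. KP5 (red diamonds) is highest for Krt8, Epcam and Cdh1 (214, 468 and 717 CPM) and lowest for Vim, Zeb1 and Zeb2, and KP3 (yellow triangles) is lowest for Cdh2 (5.76 CPM).

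The KP1 spheroid captures and the KP1 bulk spheroid library, made by different protocols, gave values side by side without a comparison. Cdh1 was 0 in both. Krt18 was 120.5 CPM in bulk and 156 ± 82.8 CPM in captures (SD, n = 28). Cdh2 was 175 CPM in bulk and 8.24 ± 29.5 CPM in captures, Zeb1 was 166 CPM and 38.1 ± 42.8 CPM, and Zeb2 was 15.9 CPM and 0.288 ± 0.637 CPM.

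Over 159 pairs of members in the 10-cell and pool groups, 0 Spearman and 0 Pearson correlations passed an adjusted p of 0.05, while 17 and 14 had an unadjusted p under 0.05 (permutation tests, lowest adjusted p = 0.318). Epcam and Vim, markers of opposite states, gave rho = 0.437 and r = 0.408 in nude livers (permutation p = 0.0120 and 0.0199, adjusted p = 0.318 and 0.441), and r was 0.577 without the 2 libraries farthest from the median. Epcam and Zeb1 gave rho = 0.504 and r = 0.464 there (permutation p = 0.00375 and 0.00660, adjusted p = 0.318 and 0.441). Cdh2 and Krt18 gave rho = -0.422 and r = -0.383 in nude livers (permutation p = 0.0151 and 0.0277, adjusted p = 0.341 and 0.441). No pair passed in either direction.

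For each of 7 members, the 3 genes most alike were found among 7343 genes, by Spearman's rho of deviations from the group medians over all 116 captures. These values are descriptions, over libraries that share a capture method and differ in depth. Vim was most like the matrix genes Sparc (rho = 0.513) and Bgn (0.470) and like Spint2 (0.453). Krt18 was most like Mtrr (0.353), the complement gene C3 (0.340) and the immunoglobulin receptor gene Pigr (0.333), and Krt8 like Ctu1 (0.418), Slc25a10 (0.386) and Ndufv2 (0.359). The highest values were 0.461 for Fn1 (Swt1), 0.461 for Epcam (Hdac3), 0.448 for Cdh2 (Ipmk) and 0.359 for Zeb1 (Sfxn1).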

How the data were processed

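The 199 deposited columns hold expected counts, that is read counts per gene estimated by the authors, with no scaling between libraries. RSEM and Bowtie2 and the builds GRCm38 and GRCh38.p12 are named in the submitters' processing notes, without roles. The annotation is not given in the sources used here. In the deposited table, 10.7% of all values, zeros and spike-in rows included, are not whole numbers, and these were rounded for the count models. The share among nonzero values was not computed. The 92 spike-in transcripts were left out of library totals and tests. Groups came from the sample labels. The members and gene lists were chosen with earlier results of these data known.

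Mean levels were compared with edgeR 4.0.16 (TMM, filterByExpr, quasi-likelihood F test, robust) in R 4.3.3, over the groups compared only, with Benjamini-Hochberg adjustment over all genes tested and a threshold of 0.05. Spread was compared with limma 3.58.1 on log2(CPM + 1), over genes averaging 5 CPM or more. Correlations were tested with 100000 permutations (scipy 1.17.1). In simulated counts for the nude comparison, over 7665 genes, the test recovered 11.9% of changes of 2-fold, 56.7% of those of 4-fold and 84.8% of those of 8-fold. Of 4-fold changes, it recovered 44.8% for F1 against spheroid captures, 46.3% between the livers, 43.3% for RPC, 26.9% for nude pools (7783 genes) and 22.4% in both other pool comparisons (6966 and 5845 genes). For spread, the simulated dispersion (variation beyond counting error), first held to at most 1, was raised 4-fold in some genes. The spread tests recovered 9%, 31% and 19% of these genes in spheroids, nude and F1 livers. Alternatives were another scaling, no filter, limma-voom, DESeq2 1.42.0, a replicate block, all groups in 1 fit, a hepatocyte covariate, library subsets and leaving out single libraries. Named genes were the members, the list genes with the smallest adjusted p (up to 4 a list and comparison) and the 3 genes most alike to each member. A list gene that this rule names is not reported here.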

Additional observations from a re-analysis of the deposited data

Results flagged for a closer look

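Krt18 and Epcam differed between the colonies of immunocompetent F1 and of nude mice by a test of the difference itself. The change of Krt18 from spheroids in F1 livers, less that in nude livers, was -1.63 on the log2 scale (SE 0.41, edgeR adjusted p = 0.00238), because the spheroid libraries are the same in both. The change of Epcam was 3.56 (SE 0.73, edgeR adjusted p = 0.000184). Krt18 was lower and Epcam higher in F1 livers. In the pools neither passed the edgeR test, at -0.99 for Krt18 (edgeR adjusted p = 0.194; limma-voom called it lower, adjusted p = 0.0160) and 1.53 for Epcam (edgeR adjusted p = 0.186). Without the F1 library with the highest Epcam, replicate 29, the Epcam value was 3.30 (edgeR adjusted p = 0.000485), and without the nude library with the highest Krt18, replicate 35, the Krt18 value was -1.41 (edgeR adjusted p = 0.00790).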

How the results depend on the processing

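Of 350 alternative values of the members' log2 fold changes and spread differences, 296 kept their direction and call. Of the others, 27 were reversed, 15 lost and 12 gained a call. Krt8 stayed called in both livers under every alternative run (4.20 to 7.62 in nude and 4.80 to 8.21 in F1 livers), as did Epcam between the livers (1.80 to 4.60) and Krt18 in RPC (-10.57 to -9.21). The cause of the changes was not tested. The numbers of genes called are not part of that tally, and they moved by over 1.5 times as follows. Without the low-count filter they were 8431 in nude livers (2669 with it), 5072 in F1 livers (924), 6294 between the livers (1358), 6115 in RPC (1881), 7888 in nude pools (2054), 5224 in F1 pools (840) and 5857 between these pools (721). With limma-voom they were 1743 in F1 livers, 3081 in RPC, 4778 in nude pools and 3339 in F1 pools. With DESeq2 they were 1417 in F1 livers, 1470 in F1 pools and 1089 between the pools. With all groups in 1 fit they were 1944 in F1 livers and 2630 between the livers. With the hepatocyte covariate 1171 genes were called in nude livers. With library subsets they were 174 in F1 livers (high spike-in shares), 379 in F1 livers and 223 between the livers (low Rpl19-ps11, 5 libraries). For spread, a pseudocount of 10 gave 5 genes in nude (73 with 1) and 49 in F1 livers (130). Replicate numbers did not pair the samples: over 27 pairs of nude and spheroid captures the median correlation of deviations was 0.00405, 0 pairs exceeded 0.1 and 1 was best with its own number. With the replicate block 887 genes were called between the livers, 1837 in F1 pools, 179 between the pools, and for spread 27 in nude and 11 in F1 livers.

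Values that changed sign had not passed the test as reported. Krt18 in nude livers was -0.21 with the hepatocyte covariate. Zeb1 in F1 livers was -0.02 with limma-voom and -0.26 with the block. Between the livers Vim was -0.23 with limma-voom and -0.67 with the block, and Zeb1 was -0.01 with DESeq2's size factors and with DESeq2, -1.04 with limma-voom and -0.95 with the block. In RPC, Cdh2 was 0.89 with limma-voom, 0.96 with DESeq2, 1.38 with the block and 0.47 with low spike-in shares, Fn1 was -0.01 with low spike-in shares and Zeb1 was 0.25 with high ones. In F1 pools Epcam was 1.24 with limma-voom, 1.05 with DESeq2 and 1.37 with the block, and Zeb1 was -0.07 with the size factors and with DESeq2, -1.83 with limma-voom (adjusted p = 0.0327) and -1.65 with the block. Between the pools Fn1 was -0.05 with limma-voom and -0.32 with the block, and Krt8 was -0.11 without the filter. With a pseudocount of 10 the spread difference was -0.00183 for Krt18 in spheroids and 0.13 for Zeb1 in F1 livers. With the block Fn1 in F1 pools was no longer called (2.42, edgeR adjusted p = 0.0711). With DESeq2's size factors the higher and lower calls were 667 and 684 between the livers (794 and 564 with TMM), 1131 and 826 in RPC (882 and 999), 1168 and 995 in nude pools (1323 and 731) and 589 and 264 in F1 pools (648 and 192). The median of all genes then moved from 0.26 to 0.16, 0.01 to 0.16, 0.16 to -0.06 and 0.46 to 0.32. The balance turned more with limma-voom, which called 1757 higher and 2109 lower in nude livers (1390 and 1279 with edgeR), 414 and 1329 in F1 livers (565 and 359), 600 and 1151 between the livers, 2032 and 1049 in RPC, 1286 and 3492 in nude pools, 393 and 2946 in F1 pools and 224 and 598 between the pools (493 and 228). With the block the calls were 1339 and 1398 in nude livers, 282 and 620 in F1 livers, 367 and 520 between the livers, 1256 and 763 in RPC, 898 and 2029 in nude pools, 219 and 1618 in F1 pools and 67 and 112 between the pools. Without the filter they were 2620 and 3674 between the livers, 2373 and 3484 between the pools and 3524 and 2591 in RPC. With DESeq2 they were 703 and 767 in F1 pools, 1363 and 1510 in nude pools and 1457 and 1020 in RPC. Against spheroid libraries with high and low spike-in shares, RPC gave 1013 and 772, and 831 and 783. Cdh1, Zeb2 and Snai2 had few or no counts in captures of 10 cells, and mean levels were tested for them without the filter only.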

Other observations

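Captures with Vim above 10 CPM in the livers also had Krt8 above that level, as most liver captures did. In nude livers 13 of 33 libraries exceeded 10 CPM of Vim and all 13 exceeded 10 CPM of Krt8, which 31 of 33 libraries did. In F1 livers this was so for 12 of 12, where all 31 libraries exceeded 10 CPM of Krt8. In spheroids 4 of 28 libraries exceeded 10 CPM of Vim and 7 of Krt8, and 0 exceeded both. Vim and Epcam exceeded 10 CPM together in 0 spheroid, 1 nude and 6 F1 libraries, out of 3, 1 and 12 with Epcam above that level. These counts are descriptions of captures of 10 cells, which do not show whether both genes were in the same cell.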
